A study of Glycine max with 12 samples.

Results

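Messenger RNA levels of 5 soybean (Glycine max) genes were described. Of these, 3 were stearoyl-acyl carrier protein desaturase genes, SACPD-A (Glyma07g32850), SACPD-B (Glyma02g15600) and SACPD-C (Glyma14g27990). The other 2 were the FATB acyl-acyl carrier protein thioesterase genes Glyma05g08060 and Glyma17g12940. All 5 genes were taken by locus identifier from the 66210 gene models of the count libraries, and were present in every library. Plants of cultivar Williams 82 were grown in a greenhouse, with no other treatment named in the labels. There were 7 libraries of whole seeds, staged by length and weight. Seeds measured 0.8 to 1.1 mm at the globular stage, 2 to 2.5 mm at the heart stage, 3 to 3.9 mm at the cotyledon stage and 6 to 7 mm at early maturation. Mid-maturation seeds measured 1.1 to 1.3 cm and weighed 150 to 250 mg, late-maturation seeds measured 1.2 to 1.5 cm and weighed 230 to 350 mg, and dry seeds weighed about 200 mg. A further 5 libraries came from whole seedlings 6 days after imbibition, trifoliate leaves, roots and stems of a mature plant 3 to 4 months old, and unopened floral buds. Each stage or organ had 1 library, so no spread between replicates exists, no difference was tested, and the intervals given are exact 95% intervals that cover counting error only. A whole seed holds embryo, endosperm and seed coat, and a level in it is an average over these.

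Fatty acids are built in the plastid while bound to acyl carrier protein (ACP). The condensing enzyme KASII lengthens palmitoyl-ACP to stearoyl-ACP, and the desaturases encoded by SACPD genes place the first double bond in stearoyl-ACP to give oleoyl-ACP, the precursor of most unsaturated fatty acids of seed oil. FATB thioesterases instead release saturated chains, chiefly palmitate, for export from the plastid, and mutations in soybean SACPD-C and FATB genes are known to alter the stearic and palmitic acid content of the seed oil. By the naming convention of the loci, SACPD-A lies on chromosome 7, SACPD-B on chromosome 2, SACPD-C on chromosome 14, and the FATB genes on chromosomes 5 and 17. A RefSeq table of assembly Glycine_max_v4.0 held entries named for SACPD or FATB on each of those chromosomes. It also held an SACPD entry on chromosome 13, so the genes described here are not shown to be whole families. None of the loci matched it by identifier, so the names rest on published assignments that were not checked against sequence.

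The 10 count libraries held 10296612 to 45726019 mapped reads in gene models. Levels in them are CPM, read counts divided by library size after TMM scaling, whose factors lay between 0.591 in dry seed and 1.27 in floral buds. The mid- and late-maturation libraries were deposited as RPKM (reads divided by gene length in kilobases and by library size) from a later batch, whose labels name a further sequencer model. Their depths, recovered from the smallest RPKM steps, were 59542387 and 103601188 reads, and gene lengths recovered the same way put the count libraries on the RPKM scale. Of 9 seed marker genes (4 glycinins, a beta-conglycinin, and the LEC1 and ABI3 homologs), all 9 were at least 4-fold higher in the highest seed library than in the highest library of the other organs. Their summed level was 31384 CPM at early maturation and 27106 CPM in dry seed, against 33.7 CPM in seedlings and 0.905 CPM or less in each of leaf, root, stem and floral bud. At early maturation the lowest of the 9 markers had 175 CPM. In dry seed the lowest had 0.236 CPM and the highest 15406 CPM, so the sum there does not speak for each marker. Against early maturation, 2 of the 9 were at least 4-fold lower in dry seed and 1 was at least 4-fold higher. At the 3 youngest stages the sum over the 9 markers was 19.8 CPM (globular), 55.1 CPM (heart) and 283 CPM (cotyledon). The globular sum lay below that of seedlings, so these markers do not set the globular library apart from seedlings. No marker list was used for the other organs.

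SACPD-C was the member with the widest range, with a high level in maturing seeds and almost no reads in leaves. Its level was 29.5 CPM at the globular stage, 21.9 CPM at the heart stage, 34.0 CPM at the cotyledon stage, 791 CPM at early maturation and 12.04 CPM in dry seed. In the other organs it was 37.4 CPM in seedlings, 0.0448 CPM in leaves, 32.05 CPM in roots, 4.15 CPM in stems and 1.76 CPM in floral buds. The early maturation library stood alone at the top, and the next 4 in order, seedling, cotyledon stage, root and globular stage, each overlapped their neighbour within the counting intervals. The value in leaves rests on 1 read among 23347386, with an interval of 0.00113 to 0.250 CPM, whereas the value at early maturation rests on 27910 reads. The highest library was 449.5-fold above the second lowest, floral bud, while the median gene of 25142 with reads in every library and at least 10 CPM in 1 of them spanned 8.81-fold from lowest to highest. In whole organs, fewer cells that express a gene and less of its RNA per cell cannot be told apart.

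On the RPKM scale SACPD-C was also high at mid maturation. It had 389 RPKM at early maturation, 523 RPKM at mid maturation, 35.8 RPKM at late maturation and 3.79 RPKM in dry seed. Its rank among the 31669 genes measured on this scale was above 99.4% of them at early maturation, 99.8% at mid maturation, 93.8% at late maturation and 57.9% in dry seed. In leaves it stood above 4.83% of genes. The rank was thus highest in the libraries on either side of the change of batch, and it fell away at the later stages.

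SACPD-B, a second desaturase gene, lay above 85.4% or more of the 31669 genes on the RPKM scale in every library. Its level was 72.3 CPM at the globular stage, 99.0 CPM at the heart stage, 100.9 CPM at the cotyledon stage, 144.6 CPM at early maturation and 73.9 CPM in dry seed. In the other organs it was 55.7 CPM in seedlings, 77.8 CPM in leaves, 61.2 CPM in roots, 71.4 CPM in stems and 68.5 CPM in floral buds. The highest library was 2.60-fold above the lowest, a wider range than in only 8.91% of the 25142 genes. Leaf, dry seed, globular stage, stem and floral bud each overlapped the next in that order, and without TMM scaling dry seed was the lowest library in place of the fifth and the range was 3.06-fold. On the RPKM scale SACPD-B had 73.6 RPKM at early maturation, 80.1 RPKM at mid maturation, 77.3 RPKM at late maturation and 24.1 RPKM in dry seed.

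SACPD-A, the near-identical partner of SACPD-B, had its highest level at early maturation and its next highest in leaves. Its level was 51.5 CPM at the globular stage, 52.3 CPM at the heart stage, 53.5 CPM at the cotyledon stage, 126 CPM at early maturation and 44.6 CPM in dry seed. In the other organs it was 38.4 CPM in seedlings, 84.2 CPM in leaves, 25.9 CPM in roots, 21.8 CPM in stems and 44.0 CPM in floral buds. The 3 earliest seed libraries overlapped one another in order, as did root and stem at the low end, and the highest library was 5.81-fold above the lowest. On the RPKM scale SACPD-A had 61.9 RPKM at early maturation, 27.9 RPKM at mid maturation, 30.6 RPKM at late maturation and 13.96 RPKM in dry seed. How reads that match both SACPD-A and SACPD-B were counted is not given in the sources used here, so the division between these 2 genes is uncertain. Leaves held 3614 reads of SACPD-A and SACPD-B together beside the 1 read of SACPD-C.

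**Figure D1:**
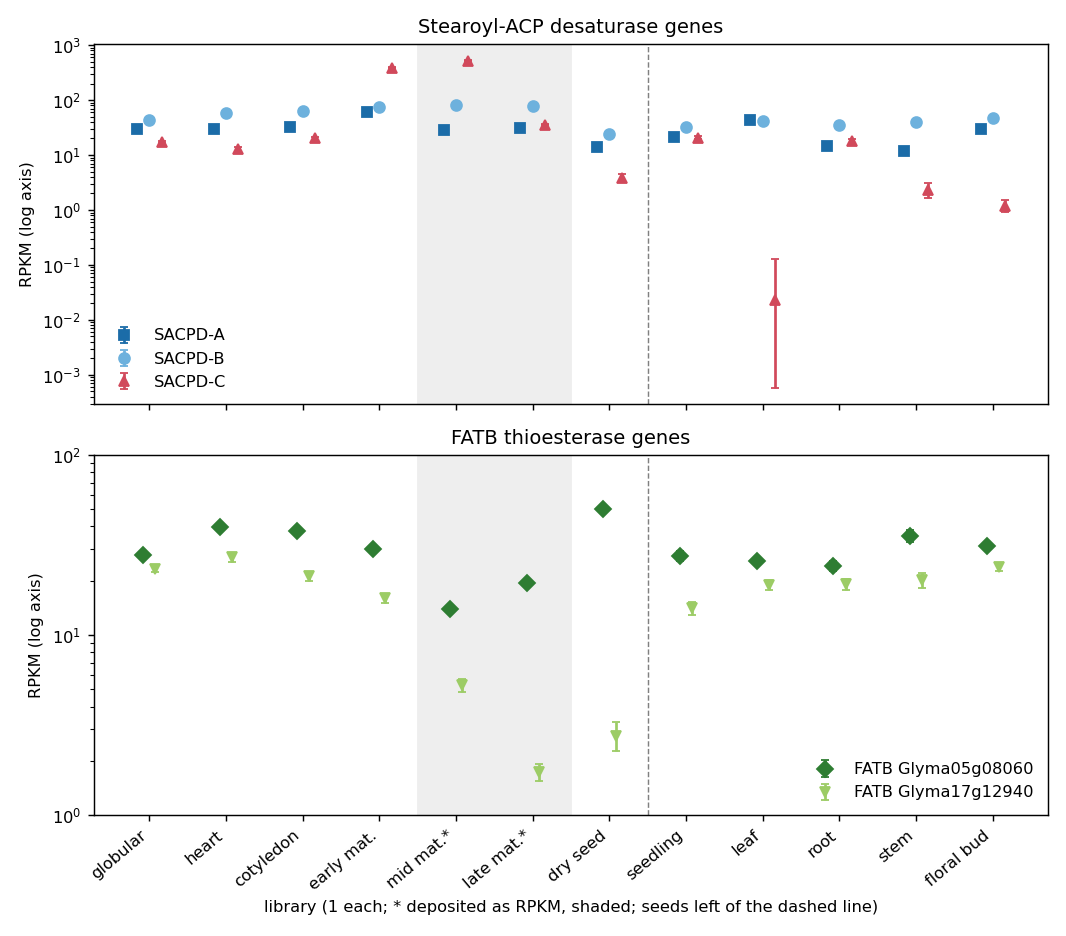
Level of each gene in the 12 libraries on a log RPKM axis, with seed stages in order on the left and the other organs on the right. Points are single libraries, bars are exact 95% counting intervals, and shading marks the libraries deposited as RPKM. SACPD-C peaks at 389 and 523 RPKM at early and mid maturation and lies at 0.0228 RPKM in leaves, and FATB Glyma17g12940 lies at 1.72 and 2.73 RPKM in late-maturation and dry seed.

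The make-up of the summed message of the 3 SACPD genes, compared per length, therefore changed with stage and organ. Shares and sums here and below are of the 3 SACPD or the 2 FATB genes chosen, and not of all such genes. SACPD-C made up 18.99% of the summed SACPD level in RPKM at the globular stage, 12.4% at the heart stage, 17.7% at the cotyledon stage, 74.2% at early maturation, 82.9% at mid maturation, 24.9% at late maturation and 9.06% in dry seed. In the other organs its share was 28.1% in seedlings, 0.0273% in leaves, 26.5% in roots, 4.16% in stems and 1.51% in floral buds. It was the largest contributor in the early- and mid-maturation libraries only, out of 12. SACPD-B was the largest in 9 libraries, with 43.2% to 74.1% of the sum there. In leaves SACPD-A and SACPD-B were level, at 51.0% and 49.0%, with a ratio of SACPD-A to SACPD-B of 1.04 (0.974 to 1.11). In the other 11 libraries that ratio lay between 0.293 in stems and 0.840 at early maturation. Each length was recovered only up to a whole-number divisor. An error of that kind would scale 1 gene by the same factor in every count library, and would leave the change of a ratio among those libraries as it is. Between a count library and a library deposited as RPKM it would not cancel.

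**Figure D2:**
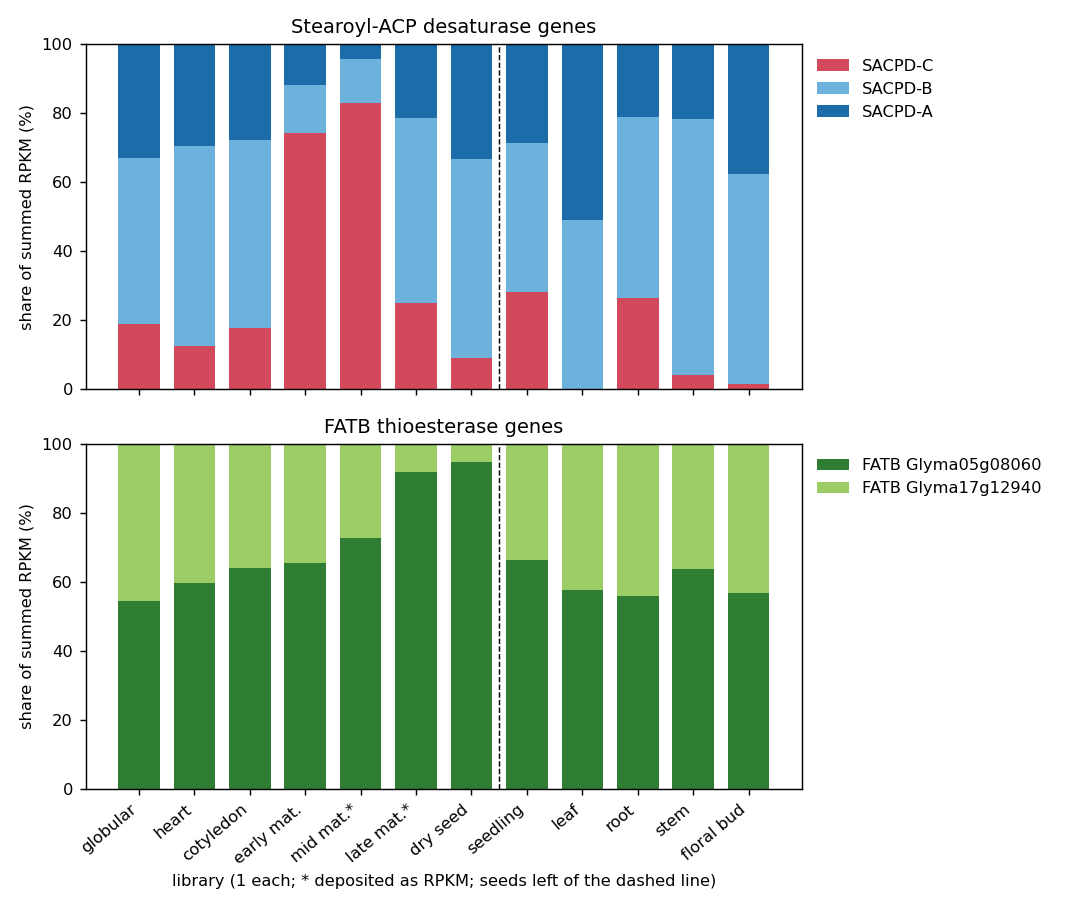
Share of each gene in the summed RPKM of the 3 SACPD or the 2 FATB genes, in percent, for the 12 libraries. Seeds are left of the dashed line. SACPD-C takes 74.2% and 82.9% of the desaturase sum at early and mid maturation, and FATB Glyma05g08060 takes 91.8% and 94.8% of the FATB sum in late-maturation and dry seed.

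Glyma05g08060 was above Glyma17g12940 in every library, by the widest ratio in late-maturation and dry seed. Glyma05g08060 had 51.2 CPM at the globular stage, 73.6 CPM at the heart stage, 67.0 CPM at the cotyledon stage, 65.1 CPM at early maturation and 169.5 CPM in dry seed. In the other organs it had 52.8 CPM in seedlings, 54.0 CPM in leaves, 45.6 CPM in roots, 68.8 CPM in stems and 49.2 CPM in floral buds. Dry seed was the highest library, and the other 9 spanned 1.62-fold. The size of that lead rests on the TMM factor of dry seed, since with plain CPM the highest was 100.2 CPM in dry seed and the next 79.9 CPM at the heart stage.

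Glyma17g12940 was at its lowest in the same dry seed library. It had 43.7 CPM at the globular stage, 50.8 CPM at the heart stage, 38.4 CPM at the cotyledon stage, 35.2 CPM at early maturation and 9.44 CPM in dry seed. In the other organs it had 27.4 CPM in seedlings, 40.3 CPM in leaves, 36.8 CPM in roots, 39.8 CPM in stems and 38.3 CPM in floral buds. Without dry seed the other 9 libraries spanned 1.85-fold, and the order from the globular stage down to early maturation ran through neighbours whose counting intervals overlapped.

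The ratio of Glyma05g08060 to Glyma17g12940, per length and within a library, did not depend on the scaling. It was 1.19 (1.13 to 1.26) at the globular stage, 1.48 (1.37 to 1.59) at the heart stage, 1.78 (1.65 to 1.92) at the cotyledon stage, 1.88 (1.76 to 2.02) at early maturation, 2.67 (2.43 to 2.93) at mid maturation, 11.2 (10.1 to 12.6) at late maturation and 18.3 (15.2 to 22.2) in dry seed. It was 1.96 (1.76 to 2.18) in seedlings, 1.36 (1.25 to 1.49) in leaves, 1.26 (1.15 to 1.39) in roots, 1.76 (1.56 to 1.99) in stems and 1.31 (1.23 to 1.40) in floral buds. Late-maturation and dry seed thus stood apart from the other 10 libraries, none of which passed 2.67. The ratio was 9.71-fold (7.97 to 11.9) higher in dry seed than at early maturation, and 4.22-fold (3.66 to 4.87) higher at late than at mid maturation, a comparison within the RPKM batch. On the RPKM scale Glyma05g08060 had 13.98 RPKM at mid maturation, 19.4 RPKM at late maturation and 49.9 RPKM in dry seed, and Glyma17g12940 had 5.24 RPKM, 1.72 RPKM and 2.73 RPKM at the same stages.

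Changes between pairs of libraries were called where the levels differed at least 4-fold, with at least 10 CPM in the higher library. From the globular to the heart stage 0 of the 5 genes were called, where 2.23% of all measured genes were, and from the heart to the cotyledon stage 0 of 5 were, where 0.664% were. Measured here means a mean of at least 1 CPM over the pair. The largest of these early differences was in SACPD-C, with 34.0 CPM at the cotyledon stage against 21.9 CPM at the heart stage, a 1.55-fold difference (1.39 to 1.73).

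At early maturation SACPD-C rose, and was the only one of the 5 genes to pass the 4-fold limit. It had 791 CPM there against 34.0 CPM at the cotyledon stage, 23.3-fold higher (21.8 to 24.8). That count of 1 in 5 stood beside 3.35% of all measured genes called in either direction and 1.91% called higher, and its log2 ratio of 4.54 was above that of 99.5% of the 32326 genes. SACPD-A had 126 CPM against 53.5 CPM, a 2.37-fold difference (2.23 to 2.51), and SACPD-B had 144.6 CPM against 100.9 CPM, a 1.43-fold difference (1.37 to 1.50). Neither reached the fold for a call. The FATB genes were near equal in these 2 libraries, with ratios of 0.973 for Glyma05g08060 and 0.918 for Glyma17g12940. The ratio of SACPD-C to SACPD-B was 16.2-fold (15.0 to 17.6) higher at early maturation than at the cotyledon stage.

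In dry seed SACPD-C fell to 12.04 CPM, against 791 CPM at early maturation, and was 65.7-fold lower (56.1 to 77.6). It was the 1 gene of 5 called, in a comparison where 31.7% of all measured genes were called and 17.9% were called lower. Glyma17g12940 was 3.73-fold lower (3.09 to 4.54), with 9.44 CPM in dry seed against 35.2 CPM at early maturation, and Glyma05g08060 was 2.60-fold higher (2.45 to 2.76), with 169.5 CPM against 65.1 CPM. Both missed the 4-fold limit, and their counting intervals lay on opposite sides of equal. SACPD-A was 2.84-fold lower (2.60 to 3.10) and SACPD-B 1.96-fold lower (1.82 to 2.10). Over measured genes with at least 3 reads in both libraries, the median log2 ratio was 0.05 with TMM and -0.61 with plain CPM. Under plain CPM, SACPD-A and Glyma17g12940 also passed the 4-fold limit, and the log2 ratio of Glyma05g08060 was 0.74 in place of 1.38.

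The gap between the FATB genes was smaller in seedlings than in dry seed, with Glyma05g08060 the higher of the 2 in both. Glyma05g08060 had 52.8 CPM in seedlings against 169.5 CPM in dry seed, 3.21-fold lower (2.98 to 3.46). Glyma17g12940 had 27.4 CPM in seedlings against 9.44 CPM in dry seed, 2.91-fold higher (2.38 to 3.57). SACPD-C had 37.4 CPM against 12.04 CPM, 3.11-fold higher (2.61 to 3.73). Of the 5 genes, 0 were called, where 31.2% of all measured genes were. Over measured genes with at least 3 reads in both libraries, the median log2 ratio was -0.07 with TMM and 0.79 with plain CPM. Under plain CPM, SACPD-C and Glyma17g12940 were called higher, and the log2 ratio of Glyma05g08060 was -0.86 in place of -1.68. The log2 ratios of SACPD-A and SACPD-B were -0.22 and -0.41 and turned to 0.61 and 0.41 under plain CPM, so no direction is given for them.

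**Figure D3:**
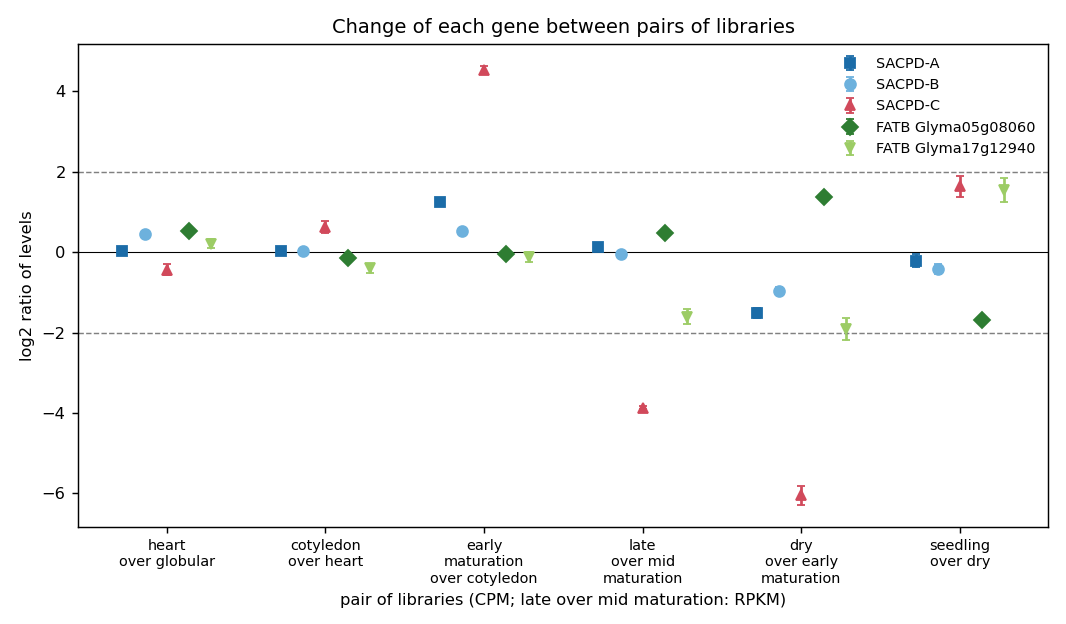
Log2 ratio of each gene for 6 pairs of libraries, the later stage over the earlier, with exact 95% counting intervals and dashed lines at the 4-fold limit. Late over mid maturation is a ratio of RPKM with no pseudocount and the others are ratios of TMM-scaled CPM. SACPD-C has the only points outside the dashed lines, at early maturation over cotyledon, late over mid maturation and dry over early maturation. The FATB genes lie on opposite sides of 0 in the last 3 pairs. However, Glyma05g08060 at late over mid maturation falls to -0.06 once the median over 20068 genes, each above a minimum RPKM in both libraries, is removed.

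Within the RPKM batch, calls were made on log2(RPKM + 0.5) with a minimum of 5 RPKM in the higher library. SACPD-C fell to 35.8 RPKM at late maturation, against 523 RPKM at mid maturation, 14.6-fold lower (14.3 to 15.0). It was the 1 gene of 5 called, where 18.3% of all measured genes were called and 7.35% were called lower, and its log2 ratio of -3.85 exceeded that of 2.17% of the 26234 genes. Glyma17g12940 had 1.72 RPKM at late maturation against 5.24 RPKM at mid maturation, 3.04-fold lower (2.67 to 3.47). SACPD-B had 77.3 RPKM against 80.1 RPKM. The log2 ratios of SACPD-A and Glyma05g08060 were 0.13 and 0.46. They fell below 0, to -0.40 and -0.06, once a median log2 ratio of 0.53 was removed. That median was taken over the 20068 genes above a minimum RPKM in both libraries.

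Pairs that joined the batches confound stage with batch, and the effects of these cannot be told apart. At mid maturation over early maturation 0 of the 5 genes were called, where 18.1% of all measured genes were. The median log2 ratio was -1.13 over the 21385 genes above a minimum RPKM in both libraries. Once that median was removed 0 of 5 were called beside 6.96% of all genes, and SACPD-C and SACPD-B had log2 ratios of 1.55 and 1.24. A recovered length that was too small would raise RPKM in the count library only, so that median would carry such errors too. Their size was not tested, so the ratios with the median removed are uncertain. As deposited, SACPD-C had 523 RPKM at mid maturation against 389 RPKM at early maturation, and SACPD-B had 80.1 RPKM against 73.6 RPKM. SACPD-A, at 27.9 RPKM against 61.9 RPKM, and Glyma05g08060, at 13.98 RPKM against 30.0 RPKM, had log2 ratios of -1.13 and -1.07, close to that median. In dry seed over late maturation 1 of 5 was called, where 10.6% of all measured genes were and 2.72% were lower: SACPD-C, at 3.79 RPKM against 35.8 RPKM, was 9.44-fold lower (8.04 to 11.2). SACPD-B, at 24.1 RPKM against 77.3 RPKM, was 3.21-fold lower (3.00 to 3.43). It was called once the libraries were set to the same median, a step open to the same length errors.

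The highest seed library was set against the highest of the other organs among the count libraries. SACPD-C had 791 CPM at early maturation against 37.4 CPM in seedlings, 21.1-fold higher (19.6 to 22.8), and was the 1 gene of 5 called. Over all measured genes 22.5% were called in either direction and 9.32% were called higher in seeds. Without the dry seed library the 3392 genes called higher became 980, and SACPD-C, whose highest seed library is early maturation, was called as before. Glyma05g08060 had 169.5 CPM in dry seed against 68.8 CPM in stems, 2.46-fold higher (2.26 to 2.68). SACPD-B had 144.6 CPM at early maturation against 77.8 CPM in leaves, SACPD-A had 126 CPM at early maturation against 84.2 CPM in leaves, and Glyma17g12940 had 50.8 CPM at the heart stage against 40.3 CPM in leaves.

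Among the organs outside the seed, SACPD-C was high in roots and seedlings and low in the shoot organs. Roots were used as the common base of 4 comparisons, which therefore share the root library and were chosen after the values were seen. SACPD-C had 0.0448 CPM in leaves against 32.05 CPM in roots, a ratio of 0.00140 (3.54e-05 to 0.00782), and was the 1 gene of 5 called, where 22.0% of all measured genes were and 11.5% were lower. In stems it had 4.15 CPM against 32.05 CPM in roots, 7.73-fold lower (5.69 to 10.7), and was again the 1 of 5, beside 7.34% of all genes called and 3.81% lower. In floral buds it had 1.76 CPM against 32.05 CPM in roots, 18.2-fold lower (14.3 to 23.5), the 1 of 5 beside 13.5% of all genes called and 7.87% lower. For seedlings over roots 0 of 5 were called, where 10.0% of all genes were, and SACPD-C had 37.4 CPM against 32.05 CPM. SACPD-A had 84.2 CPM in leaves against 25.9 CPM in roots, 3.25-fold higher (2.96 to 3.58), which missed the limit. The FATB genes lay within 1.51-fold of roots in each of these organs.

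The summed level of the 3 SACPD genes was set over that of the 2 FATB genes, both in RPKM. This ratio was 1.77 at the globular stage, 1.53 at the heart stage, 1.96 at the cotyledon stage and 11.4 at early maturation. It was 32.8 at mid maturation, 6.81 at late maturation and 0.794 in dry seed. It was 1.79 in seedlings, 1.88 in leaves, 1.58 in roots, 0.988 in stems and 1.43 in floral buds. The 3 maturation libraries were above every other library and dry seed was the lowest. With SACPD-C left out, the ratio of SACPD-A and SACPD-B to the FATB sum was 2.95 at early maturation, 5.62 at mid maturation, 5.11 at late maturation and 0.722 in dry seed. These values rest on the recovered lengths, and are ratios of message and not of enzyme.

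Other genes of fatty acid and oil synthesis were described from a list of 14 loci: KASIII, 2 KASII, 4 FAD2 and 3 FAD3 desaturase genes, 2 DGAT1 genes of the last acyl transfer of oil synthesis, and 2 homologs of WRI1, a transcription factor of fatty acid synthesis genes. At early maturation over the cotyledon stage 3 of 13 measured were called higher, beside 1.91% of all genes, and 0 lower, with a median log2 ratio of 1.25 against 0.01 over all genes and 0.52 over the 5 desaturase and FATB genes. They were FAD2-1A and FAD2-1B, which encode seed oleate desaturases and had log2 ratios of 7.59 and 7.76, and the WRI1 homolog Glyma08g24420, with 2.19. The oleate that FAD2 enzymes use derives from the oleoyl-ACP made by stearoyl-ACP desaturases. The log2 ratio of SACPD-C was 4.54 in the same pair.

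In dry seed over early maturation 9 of 13 measured list genes were called lower, beside 17.9% of all genes, and 1 was higher, with a median log2 ratio of -4.21 against -0.29 over all genes and -1.50 over the 5. Lower were both KASII genes, FAD2-1A and FAD2-1B, the 3 FAD3 genes and both WRI1 homologs. FAD3C and the WRI1 homolog Glyma08g24420 had 0 reads in dry seed and entered at a floor of 3 reads. DGAT1B was higher, with a log2 ratio of 3.41. KASIII, DGAT1A and FAD2-2 Glyma03g30070 were not called, and neither was Glyma05g08060, whose log2 ratio was 1.38. At late over mid maturation 8 of 13 list genes were called lower, beside 7.35% of all genes, and 0 higher, with a median of -2.42 against 0.35 over all genes and -0.05 over the 5. SACPD-C was lower in both of these pairs.

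**Figure D4:**
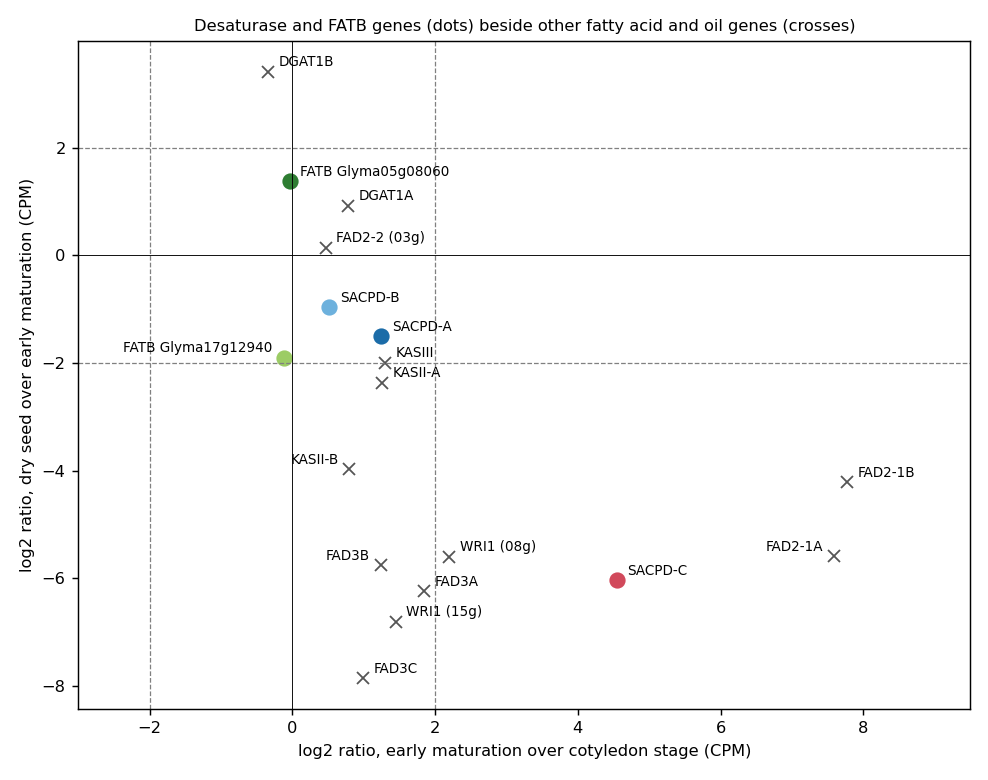
Log2 ratio in CPM for early maturation over the cotyledon stage (horizontal) and dry seed over early maturation (vertical), for the 5 desaturase and FATB genes (dots) and the 13 list genes measured (crosses), with dashed lines at the 4-fold limit. Both axes use the early maturation library, so their values are not independent. SACPD-C, at 4.54 and -6.04, lies past both limits in the lower right, as do FAD2-1A, FAD2-1B and the WRI1 homolog Glyma08g24420. DGAT1A, DGAT1B, FAD2-2 Glyma03g30070 and FATB Glyma05g08060 lie above 0 on the vertical axis.

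At heart over globular 0 of 10 list genes were called, beside 2.23% of all measured genes, and at cotyledon over heart 0 of 12 were, beside 0.664%. In seedlings over dry seed 4 of 12 were higher and 2 lower, beside 31.2% of all genes called in either direction. In seeds over the other organs 5 of 13 were higher and 0 lower, beside 22.5%. For mid over early maturation 1 of 13 was higher and 3 lower, beside 18.1%, and for dry seed over late maturation 0 of 9 were called, beside 10.6%. Over roots, 2 of 12 were higher in leaves beside 22.0% of all genes called, 1 of 10 in floral buds beside 13.5% and 1 of 10 in seedlings beside 10.0%, and 0 of 10 were called in stems beside 7.34%. No list gene was called lower in these 4 pairs, where SACPD-C was called lower in 3. FAD3A, which missed the 10 CPM minimum, had 4 reads in stems against 93 in roots and was 11.6-fold lower (4.37 to 43.3).

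Likeness of pattern was described by Pearson's r of log2(CPM + 1) over the 10 count libraries, which share differences of depth, stage and organ. SACPD-A and SACPD-B had r = 0.74 and Spearman's rho = 0.87. SACPD-C had r = 0.55 with SACPD-B and 0.34 with SACPD-A, but rho of 0.14 and 0.16. The FATB genes had r = -0.80 with rho = 0.03, and r = 0.38 without the dry seed library. Over 29548 other genes, the most alike was Glyma13g19610 for SACPD-A (r = 0.963), Glyma08g38190 for SACPD-B (r = 0.957), Glyma15g20400 for SACPD-C (r = 0.911), Glyma09g33040 for Glyma05g08060 (r = 0.989) and Glyma03g38850 for Glyma17g12940 (r = 0.990). These 5 loci have no name in the sources used. Genes with r over 0.95 numbered 4 for SACPD-A, 2 for SACPD-B, 0 for SACPD-C, 22 for Glyma05g08060 and 192 for Glyma17g12940, and without dry seed the r of the closest gene was 0.945 for Glyma05g08060 and 0.916 for Glyma17g12940.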

How the data were processed

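Poly-A+ RNA was sequenced, per the labels' protocols, with 76-base reads. For 10 libraries the authors deposited raw read counts per gene model, and for mid and late maturation the authors deposited RPKM of genes above 0. Reads were aligned with Bowtie, and bedtools is named for the RPKM libraries, per the submitters' processing notes. For tool versions, genome build and multiply mapping reads, nothing is given in the sources used here. Counts were scaled with TMM (edgeR 4.0.16). DESeq2 1.42.0 size factors and plain CPM were alternatives. Calls needed 4-fold and 10 CPM, with counts under 3 set to 3, or 4-fold on log2(RPKM + 0.5) and 5 RPKM. Fold intervals are exact conditional binomial 95% intervals, and cover counting error only.

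Library depth and gene length were recovered from the RPKM values as whole reads. The 1500 lowest values were each taken as a single read. Of these, 87.4% at mid and 91.1% at late maturation gave a gene length that was whole within 0.03 bases. RPKM of count libraries used their total counts and those lengths, 38391 genes having one. Gene models may differ between the batches. The calling and the recovery were run on simulated data, with outcomes not given here. A recovered length too small by a whole factor would raise the RPKM and rank of that gene in the count libraries, and could lower the rank of other genes there.

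The genes named were the 5 desaturase and FATB genes, a list of 14 pathway genes, 9 seed markers and the gene most alike to each of the 5. These genes and lists were chosen with earlier results of these data known.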

Additional observations from a re-analysis of the deposited data

How the results depend on the processing

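Each group had 1 library, so replicate spread and stage or organ cannot be told apart, and no paired analysis was possible because each group had 1 library. Of 76 recounts of called genes under another setting, 62 stayed within 1.5 times and 14 did not, and no call changed sign. With a 2-fold limit the number called became 2 of 5 at early maturation over cotyledon, beside 13.1% of all genes called in either direction. It became 4 at dry over early maturation (48.1% of all genes), 3 at seedling over dry (47.4%) and 2 at seeds over other organs (42.3%). It became 2 at late over mid maturation (37.2%), 3 at mid over early maturation (45.9%), 4 at dry over late maturation (31.6%) and 2 at leaf over root (36.6%). With plain CPM it became 3 at dry over early maturation, beside 29.6% of all genes, and 2 at seedling over dry, beside 29.8%. Over all genes plain CPM gave 2550 higher and 6690 lower in dry seed over early maturation, against 4418 and 5769 with TMM, and 7785 and 2103 in seedlings over dry seed, against 6139 and 4375. With the libraries set to the same median the number of the 5 called became 2 at dry over late maturation, beside 9.88% of all genes. With a minimum of 50 CPM it became 0 at leaf, stem and floral bud over root, since SACPD-C had 32.05 CPM in roots. Of all genes, 8.39%, 2.49% and 4.68% were called in those 3 pairs at that minimum. By counts in place of RPKM, SACPD-C made up 83.2% of the desaturase sum at mid maturation. Spearman's rho in place of Pearson's r gave 0.867 for SACPD-A and SACPD-B, and 0.030 for the FATB genes, which had r = 0.378 without dry seed. Of 135 log2 ratios of single genes under another scaling or pseudocount, 44 moved by more than the half-width of their counting interval. The cause of these changes was not tested.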
